A study of Homo sapiens and Mus musculus with 28 samples.

Results

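The genes described here are 36 genes of the mature absorptive cell of the gut: 8 of the microvillus actin bundle, 4 of the adhesion complex between microvillus tips, 4 adhesion and surface genes, 4 brush border hydrolases, 6 genes of lipid handling and 10 of transport and ion handling. They were chosen by gene symbol as known enterocyte and brush border genes, with earlier results of these data known. Matched to the gene identifier in each file, they are 36 of the 60357 genes that all 28 libraries list. In xenografts of the colorectal cancer line DLD-1, knockout of the transcription factor GATA6 went with VIL1 at 2.43 ± 0.513 TPM against 46.3 ± 4.71 TPM in control xenografts (SD, n = 5 each), and LGALS4 stood at 0.172 ± 0.0593 TPM against 16.0 ± 4.96 TPM. Of the 11 members tested in cultured knockout cells 8 were lower and 1 higher, where 59.1% of all genes tested were called, and of the 14 tested at 72 h of GATA6 protein depletion 5 were lower and 4 higher, where 57.8% of all genes were called. TPM is a transcript level that the authors scaled for length and library size, so levels in TPM can be compared between genes.

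Enterocytes carry a brush border of microvilli on the surface that faces the gut lumen. Each microvillus holds a bundle of actin filaments cross-linked by villin, espin and plastin-1, tied to the membrane by ezrin and myosin 1A, and joined to its neighbours at the tip by protocadherins. Peptidases and disaccharidases sit in that membrane, and the cell below takes up lipids, bile acids and ions. GATA factors are zinc-finger transcription factors of endoderm, and GATA6 is present in the intestinal epithelium. DLD-1 is a human colorectal adenocarcinoma line, and the question the series addresses is how expression changes when GATA6 is lost.

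All libraries are directional, poly-A selected RNA libraries of DLD-1 cells, in 3 systems. In the degron system all 12 libraries carry the genotype GATA6-AID-IAA7, in which the GATA6 protein is tagged so that auxin (IAA, 500 µM) brings about its degradation; 3 libraries each are controls, labelled as auxin for 0 h, cells after 12 h, cells washed free of auxin at 12 h and kept 24 h without it, and cells after 72 h. In the culture system 3 libraries are GATA6 CRISPR KO cells (labelled sgGATA6) and 3 are WT. In the xenograft system 5 libraries are tumours of GATA6 CRISPR KO cells and 5 are tumours of control cells, labelled WT, grown in the flank of athymic nude mice of 5 to 6 weeks, a host without T cells. The labels speak of positive degron clones without a number and do not say whether the knockout cells are 1 clone, and they do not say that replicates are separate cultures or animals, so the p-values measure the spread between these libraries, which may be technical.

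Libraries held 14569850 to 36500654 counts. GATA6 transcript, which a degron does not act on and a CRISPR deletion need not remove, was lower in KO cultures (7.14 to 10.1 TPM, against 19.8 to 32.1 TPM in WT cultures) and in KO xenografts (9.78 to 15.6 TPM, against 25.2 to 31.7 TPM in control xenografts), and stood at 20.9 to 23.6 TPM in degron controls, 22.6 to 24.9 TPM at 12 h, 22.8 to 26.7 TPM after washout and 12.7 to 15.8 TPM at 72 h. All 8 epithelial identity genes, EPCAM and CDH1 among them, were detected in every group. Of 8 leukocyte markers, 6 were detected in KO cultures and 5 in WT cultures, with a summed level of 22.9 to 24.3 TPM in KO cultures and 5.26 to 5.57 TPM in WT cultures. Most of it was CD68 (20.7 to 22.2 TPM against 2.94 to 3.31 TPM), while CD3E was at 0 in both groups and the pan-leukocyte gene PTPRC at 0.0800 TPM or less; the part of these markers in the results was not tested. The libraries of 12 h replicates 2 and 3 and of washout replicates 1 and 3 held 4897, 1027, 227 and 2739 counts of haemoglobin transcripts. Several results that rest on them are also given without them. The 12 h and washout groups are then left with 12 h replicate 1 and washout replicate 2 alone, so only the size of a change is given there. The strand setting of the authors' counting is not given in the sources used here, and 17 members, VIL1, EPS8, EPS8L3, EZR, DPP4 and MYO7B among them, overlap a gene on the opposite strand, so their values are less certain; so are those of near relatives such as CA1 and CA2.

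Of the 36 members, 20 reached a mean of 1 TPM in at least 1 of the 8 groups, and 7 did so in all 8: the actin-bundle genes VILL, PLS1, EPS8, EPS8L3 and EZR, the cadherin CDH17 and the carbonic anhydrase CA2. Control xenografts had the most, 17, against 10 in KO xenografts. The 7 that stood above 1 TPM in control xenografts and below it in KO xenografts were ESPN, USH1C, MYO7B, LGALS4, DPP4, FABP1 and SLC51B. In culture the number was 9 in KO cells and 10 in WT cells, and in the degron cells it was 11 in controls, 12 at 12 h, 10 after washout and 10 at 72 h. APOA1, AZGP1 and SLC51A reached 1 TPM only outside the xenografts.

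EZR, which codes for ezrin, had the highest level of the members in every library, from 231 to 649 TPM. Transcripts of several terminal products of the enterocyte were near the floor of detection in every group. TMIGD1, an adhesion molecule, and FABP2, the intestinal fatty acid binding protein, had 0 counts in all 28 libraries. The chloride and bicarbonate exchanger SLC26A3 had 1 count in all, the carbonic anhydrase CA4 and uroguanylin GUCA2B had 2 each, sucrase-isomaltase SI had 8, the lipid transfer protein MTTP had 14 and the water channel AQP8 had 17.

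**Figure D1:**
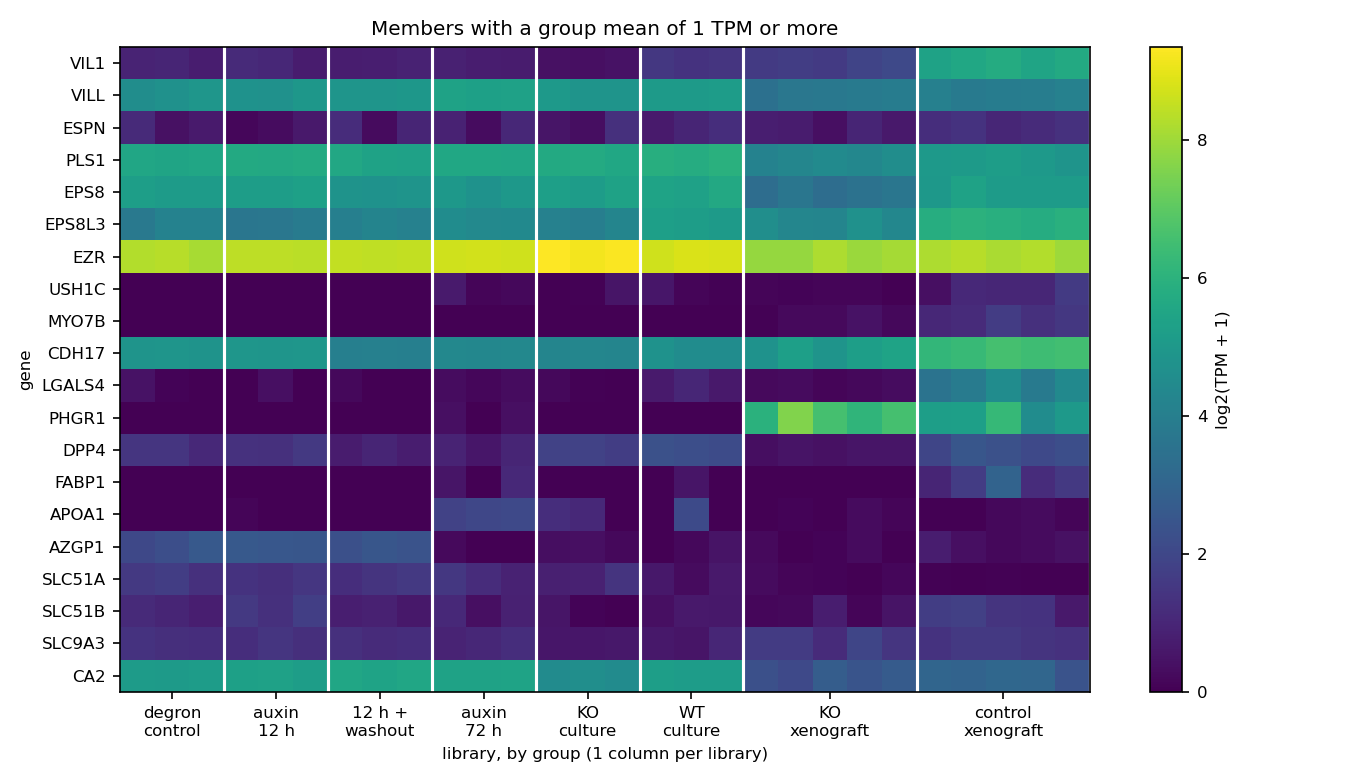
Level of the 20 members that reached a group mean of 1 TPM, as log2(TPM + 1) on the colour scale, with 1 row per gene and 1 column per library; white lines part the 8 groups. VIL1, LGALS4, MYO7B and DPP4 are darker in the 5 KO xenografts than in the 5 control xenografts, PHGR1 is bright in xenografts only, and EZR is the brightest row throughout.

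In KO xenografts, 17 of 36 members passed the filter on low counts, and 12 of them were lower and 1 higher than in control xenografts at an adjusted p under 0.05 (edgeR's quasi-likelihood test with Benjamini-Hochberg adjustment over all genes tested, the method of every adjusted p given here). Over all 14996 genes tested, 56.1% were called, 28% higher and 28.1% lower. Of the 17, the 4 genes MYO1A, USH1C, MYO7B and LGALS4 passed only through the control xenografts, where they were high, so these counts support nothing about the members as a list. In bulk tumour RNA, fewer cells of a type and less RNA per cell cannot be told apart. The sum of 12 markers of secretory gut cells was 1286.7 to 1452.1 TPM in KO xenografts and 574 to 627 TPM in control xenografts. Most of it was AGR2, with ATOH1 at 0.0300 TPM or less and MUC2 at 0.100 TPM or less. Of the 5 secretory markers tested, 2 were higher and 2 lower in KO xenografts, so the sum does not describe the list. The 8 endothelial and fibroblast markers summed to 2.90 to 5.33 TPM in KO xenografts and 1.52 to 3.14 TPM in control xenografts, with COL1A2 at 0.0100 TPM or less. These are values of human genes in tumours grown in mice, so the sums do not gauge host tissue. The part of either list in the results was not tested.

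Villin, the actin bundler and severing protein that marks the brush border, had the widest gap of the actin-bundle genes. VIL1 stood at 2.0, 2.26, 1.99, 2.74 and 3.17 TPM in the KO xenografts, against 40.6, 46.1, 52.2, 43.2 and 49.6 TPM in the control xenografts. The groups did not overlap, and VIL1 fell 18.2-fold (log2 -4.18 ± 0.14 SE, adjusted p = 2.59e-11). EPS8, which caps and bundles actin at microvillus tips, had 9.12, 11.8, 9.20, 10.4 and 11.7 TPM in KO xenografts and 30.8, 41.3, 33.8, 33.8 and 33.6 TPM in control xenografts. It fell 3.22-fold with no overlap between the groups (log2 -1.69 ± 0.08, adjusted p = 3.92e-10). Its relative EPS8L3 had 23.5, 18.6, 17.9, 25.3 and 19.2 TPM in KO xenografts and 54.9, 62.4, 58.7, 53.5 and 60.6 TPM in control xenografts, a fall of 2.65-fold (adjusted p = 4.33e-09). PLS1, plastin-1, averaged 19.7 ± 2.38 TPM in KO xenografts and 31.8 ± 3.04 TPM in control xenografts, and fell 1.53-fold (adjusted p = 9.80e-05).

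The other actin-bundle genes had less firm calls or none. ESPN, espin, stood at 0.310 to 0.940 TPM in KO xenografts and 0.980 to 1.56 TPM in control xenografts (log2 -0.64 ± 0.25, adjusted p = 0.0386), and the brush border motor MYO1A at 0.140 to 0.370 TPM against 0.330 to 0.590 TPM (log2 -0.73 ± 0.29, adjusted p = 0.0422). Both calls were lost when single libraries were left out, ESPN in 6 of the 10 cases with adjusted p up to 0.104 and MYO1A in 8 of the 10 with adjusted p up to 0.114. Ezrin did not pass the test: EZR had 254 ± 27.2 TPM in KO xenografts and 290.2 ± 26.8 TPM in control xenografts (log2 -0.12, adjusted p = 0.294). The villin-like gene VILL had 12.4 ± 1.58 TPM in KO xenografts and 14.7 ± 1.23 TPM in control xenografts (log2 -0.19 ± 0.10, adjusted p = 0.116), so the paralog of villin showed no call beside the 18.2-fold fall of VIL1.

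Genes of the complex that joins microvillus tips were at low levels. MYO7B, the motor of that complex, stood at 0.05, 0.190, 0.170, 0.360 and 0.140 TPM in KO xenografts, against 1.06, 1.23, 2.14, 1.44 and 1.85 TPM in control xenografts. The groups were apart, and MYO7B fell 9.86-fold (log2 -3.30 ± 0.32, adjusted p = 7.93e-07). USH1C, the scaffold protein harmonin, had 0.0800, 0.0700, 0.100, 0.100 and 0 TPM in KO xenografts and 0.320, 1.10, 1.01, 1.01 and 1.97 TPM in control xenografts, which rest on 11 and 205 counts. It fell 13.9-fold (log2 -3.80 ± 0.54, adjusted p = 2.79e-05). The protocadherin CDHR5 was not called, at 0.05 to 0.350 TPM in KO xenografts and 0.170 to 0.330 TPM in control xenografts, and its partner CDHR2 did not pass the filter.

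Of the adhesion and surface genes, 2 fell and 1 rose. LGALS4 codes for galectin-4, a lectin of gut epithelial cells. It had 0.190, 0.210, 0.0800, 0.150 and 0.230 TPM in KO xenografts, against 10.7, 13.7, 22.1, 13.2 and 20.4 TPM in control xenografts. The lowest control xenograft was above the highest KO xenograft, and the fitted fall was 84.8-fold (log2 -6.41 ± 0.32, adjusted p = 4.96e-10). CDH17, liver-intestine cadherin, had 26.0, 37.2, 27.5, 36.4 and 41.5 TPM in KO xenografts and 72.2, 77.1, 94.4, 85.9 and 89.6 TPM in control xenografts. It fell 2.36-fold (log2 -1.24 ± 0.14, adjusted p = 7.26e-06) with no overlap.

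PHGR1, a small protein of gut epithelium named for its proline, histidine and glycine content, went the other way. It had 60.8, 190, 94.5, 68.8 and 94.2 TPM in KO xenografts and 37.1, 37.7, 76.2, 22.2 and 32.3 TPM in control xenografts, so the highest control lay inside the range of the KO tumours. PHGR1 rose 2.50-fold (log2 1.32 ± 0.41, adjusted p = 0.0200), a call that was lost without the filter on low counts (adjusted p = 0.0522). In the 18 libraries of cultured and degron cells its level was 0.300 TPM or less.

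DPP4, a peptidase of the brush border membrane, had 0.260, 0.420, 0.340, 0.440 and 0.460 TPM in KO xenografts, against 2.83, 4.64, 3.93, 3.17 and 3.72 TPM in control xenografts. It fell 9.08-fold with no overlap (log2 -3.18 ± 0.19, adjusted p = 2.51e-09). The other hydrolases, ANPEP, ALPI and SI, did not pass the filter. Among the lipid genes FABP1, the liver-type fatty acid binding protein that enterocytes also make, had 0 counts in the 5 KO xenografts and 71 in the control xenografts, where it stood at 0.960, 2.18, 6.91, 1.26 and 1.92 TPM. Against a floor of 3 counts over the KO group FABP1 was at least 17.9-fold lower, which is a statement about counting error only, as are the count intervals below.

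Transport genes were mixed. GUCA2A, which codes for the hormone guanylin, had 2 counts in KO xenografts and 33 in control xenografts, a ratio of count rates of 12.5 (95% interval 3.19 to 107). SLC51A, a subunit of the transporter that exports bile acids, had 8 counts in KO xenografts and 2 in control xenografts, a ratio of 5.30 the other way (95% interval 1.06 to 51.2). SLC51B, the other subunit of that transporter, had 15 counts in KO xenografts and 120 in control xenografts, with levels of 0.100 to 0.680 TPM and 0.540 to 2.38 TPM; it did not pass the filter and was not tested. CA2 had 3.19 to 5.67 TPM in KO xenografts and 4.25 to 7.67 TPM in control xenografts (log2 -0.50 ± 0.19, adjusted p = 0.0379), a call lost in 7 of the 10 cases that left out 1 library, with adjusted p up to 0.113. The sodium and proton exchanger SLC9A3 stood at 1.99 ± 0.605 TPM in KO xenografts and 1.72 ± 0.180 TPM in control xenografts and was not called (adjusted p = 0.181).

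**Figure D2:**
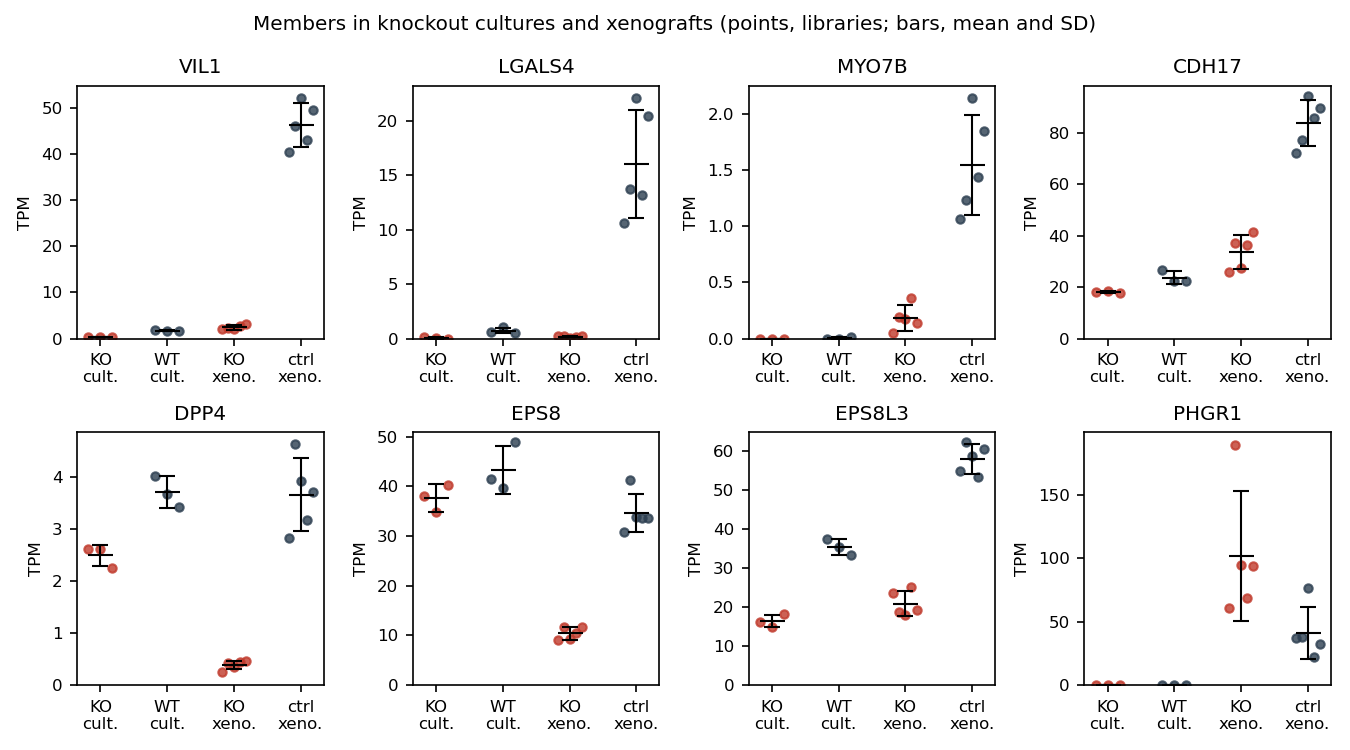
TPM of 8 members in KO and WT cultures and in KO and control xenografts; points are libraries (3 per culture group, 5 per xenograft group) and bars are the mean and SD. The control xenografts stand apart from the KO xenografts for VIL1, LGALS4, MYO7B, CDH17, DPP4, EPS8 and EPS8L3, while PHGR1 is higher in the KO xenografts and overlaps.

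The promoters of the members that were lower by a log2 of 2 or more in KO xenografts, or that had nearly no counts there, are shown where the table of windows holds them, because GATA factors bind short DNA motifs with GATA at their core. Windows run from 250 bases before to 50 bases after the start of the gene (RefSeq, GRCh38.p14), 5′ to 3′ on the gene's strand, with matches on either strand in capitals to AGATAA or to AGATAG, and likewise to TGATAA or to TGATAG; matches may overlap. LGALS4 is chr19:38812896-38813195 on the minus strand, FABP1 is chr2:88128013-88128312 on the minus strand, and GUCA2A is chr1:42164696-42164995 on the minus strand. VIL1 had no window in the table. MYO7B is chr2:127535433-127535732 on the plus strand, USH1C is chr11:17544367-17544666 on the minus strand, and DPP4 is chr2:162074166-162074465 on the minus strand.
LGALS4: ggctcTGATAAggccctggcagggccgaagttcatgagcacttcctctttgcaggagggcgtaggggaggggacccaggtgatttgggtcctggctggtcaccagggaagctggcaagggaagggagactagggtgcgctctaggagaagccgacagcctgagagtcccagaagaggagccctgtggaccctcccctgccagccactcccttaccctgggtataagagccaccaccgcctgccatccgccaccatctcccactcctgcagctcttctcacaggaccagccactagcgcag
FABP1: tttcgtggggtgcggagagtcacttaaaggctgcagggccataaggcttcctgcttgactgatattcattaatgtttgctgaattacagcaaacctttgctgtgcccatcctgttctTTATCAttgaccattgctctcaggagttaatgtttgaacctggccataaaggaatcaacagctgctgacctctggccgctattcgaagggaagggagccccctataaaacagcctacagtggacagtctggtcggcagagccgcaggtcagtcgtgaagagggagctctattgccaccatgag
GUCA2A: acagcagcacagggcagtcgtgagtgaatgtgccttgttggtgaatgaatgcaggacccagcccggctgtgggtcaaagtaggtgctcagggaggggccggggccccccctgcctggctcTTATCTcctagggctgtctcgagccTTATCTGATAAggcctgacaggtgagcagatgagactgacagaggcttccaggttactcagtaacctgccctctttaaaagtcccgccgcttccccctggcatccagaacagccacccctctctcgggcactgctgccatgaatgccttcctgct
MYO7B: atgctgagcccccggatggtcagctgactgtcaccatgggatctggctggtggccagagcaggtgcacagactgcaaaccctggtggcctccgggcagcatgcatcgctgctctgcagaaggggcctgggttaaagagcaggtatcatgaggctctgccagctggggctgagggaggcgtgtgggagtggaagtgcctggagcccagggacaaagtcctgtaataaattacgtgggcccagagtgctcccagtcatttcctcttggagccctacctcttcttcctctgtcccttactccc
USH1C: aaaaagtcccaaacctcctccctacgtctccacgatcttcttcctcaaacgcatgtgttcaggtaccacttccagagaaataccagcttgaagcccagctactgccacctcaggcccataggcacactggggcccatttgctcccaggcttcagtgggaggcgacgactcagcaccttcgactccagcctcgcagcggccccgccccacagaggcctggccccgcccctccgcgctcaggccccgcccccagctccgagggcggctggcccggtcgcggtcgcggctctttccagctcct
DPP4: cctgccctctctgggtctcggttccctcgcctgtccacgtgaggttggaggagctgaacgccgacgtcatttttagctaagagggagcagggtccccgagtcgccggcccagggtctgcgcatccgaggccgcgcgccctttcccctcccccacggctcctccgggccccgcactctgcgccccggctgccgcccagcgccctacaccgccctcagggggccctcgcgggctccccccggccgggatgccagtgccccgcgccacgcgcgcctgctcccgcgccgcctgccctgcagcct

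The LGALS4 window held 1 match, which begins 245 bases before the start, and the FABP1 window held 1 at 133 bases before it. GUCA2A held 3, at 130, 105 and 100 bases before the start, of which the last pair overlap. The windows of MYO7B, USH1C and DPP4 held none. Of the 36 members 25 had a window, and 10 of these (40%) held a match in the 1 window nearest the annotated start. Of all 35116 promoter windows of this length, several for some genes, 25% held a match, so the shares are not counted alike. The 10 included TMIGD1 and FABP2, with 0 counts in every library, so the share says nothing about the members that fell. A match of letters is a description of the window and shows no binding.

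In cultured cells, 11 of 36 members passed the filter, and 8 were lower and 1 higher in KO cells than in WT cells. Of all 13740 genes tested 59.1% were called, 30.4% higher and 28.7% lower. The share of all calls that were higher was 51.4%, and 62.2% with libraries scaled by total counts, which moved the median of all genes to 0.11 on the log2 scale and left 8 members lower and 1 higher. The median log2 fold change was -0.57 over the 11 members and 0.02 over all genes. As the members were chosen with earlier results of these data known, these counts and medians support nothing about them as a list.

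VIL1 had the widest gap of the members tested in cultures and called. It stood at 0.350, 0.290 and 0.360 TPM in KO cultures, against 1.83, 1.60 and 1.73 TPM in WT cultures. The groups were apart and VIL1 fell 5.47-fold (log2 -2.45 ± 0.18, adjusted p = 1.57e-08). EPS8L3 had 16.1, 14.9 and 18.1 TPM in KO cultures and 37.6, 35.5 and 33.3 TPM in WT cultures, and fell 2.46-fold (log2 -1.30 ± 0.08, adjusted p = 1.77e-09). Smaller falls were called for 3 more genes of the actin bundle. PLS1 had 49.5 ± 2.45 TPM in KO cultures and 57.3 ± 3.27 TPM in WT cultures (1.28-fold lower), and VILL 28.9 ± 2.59 TPM against 33.7 ± 0.708 TPM (1.28-fold lower). EPS8 had 37.8 ± 2.83 TPM in KO cultures and 43.4 ± 4.85 TPM in WT cultures; its TPM overlapped between the groups, and its call (log2 -0.44 ± 0.05, adjusted p = 5.12e-06) was lost on the TPM scale with limma (adjusted p = 0.128).

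EZR was the 1 member that rose. It had 649, 577 and 630.2 TPM in KO cultures, against 405 to 454 TPM in WT cultures, a rise of 1.24-fold in the count fit (log2 0.32 ± 0.06, adjusted p = 0.000396). Outside the actin bundle, CA2 had 22.0, 23.8 and 21.9 TPM in KO cultures and 36.6, 35.2 and 34.9 TPM in WT cultures, and fell 1.80-fold (adjusted p = 4.34e-08). DPP4 had 2.61, 2.62 and 2.26 TPM in KO cultures and 4.03, 3.68 and 3.43 TPM in WT cultures (1.65-fold lower, adjusted p = 0.000120). CDH17 had 17.9, 18.5 and 17.8 TPM in KO cultures and 26.5, 22.2 and 22.2 TPM in WT cultures (1.48-fold lower, adjusted p = 3.00e-06). All 3 genes stood apart between the groups.

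LGALS4 was below the filter in culture, with 2 counts in KO cells and 26 in WT cells, a ratio of count rates of 15.3 (95% interval 3.82 to 133). SLC9A3 was not called (log2 -0.56 ± 0.28, adjusted p = 0.0956). APOA1 was at 1.36, 1.12 and 0 TPM in KO cultures and at 0, 3.29 and 0 TPM in WT cultures, so 1 WT library carried the group. That library, WT replicate 2, also held 17 counts of 6 liver transcripts (ALB, AFP, AHSG, APOA2, TTR and APOH), against 0 in the other WT cultures and 5, 6 and 0 in the KO cultures.

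**Figure D3:**
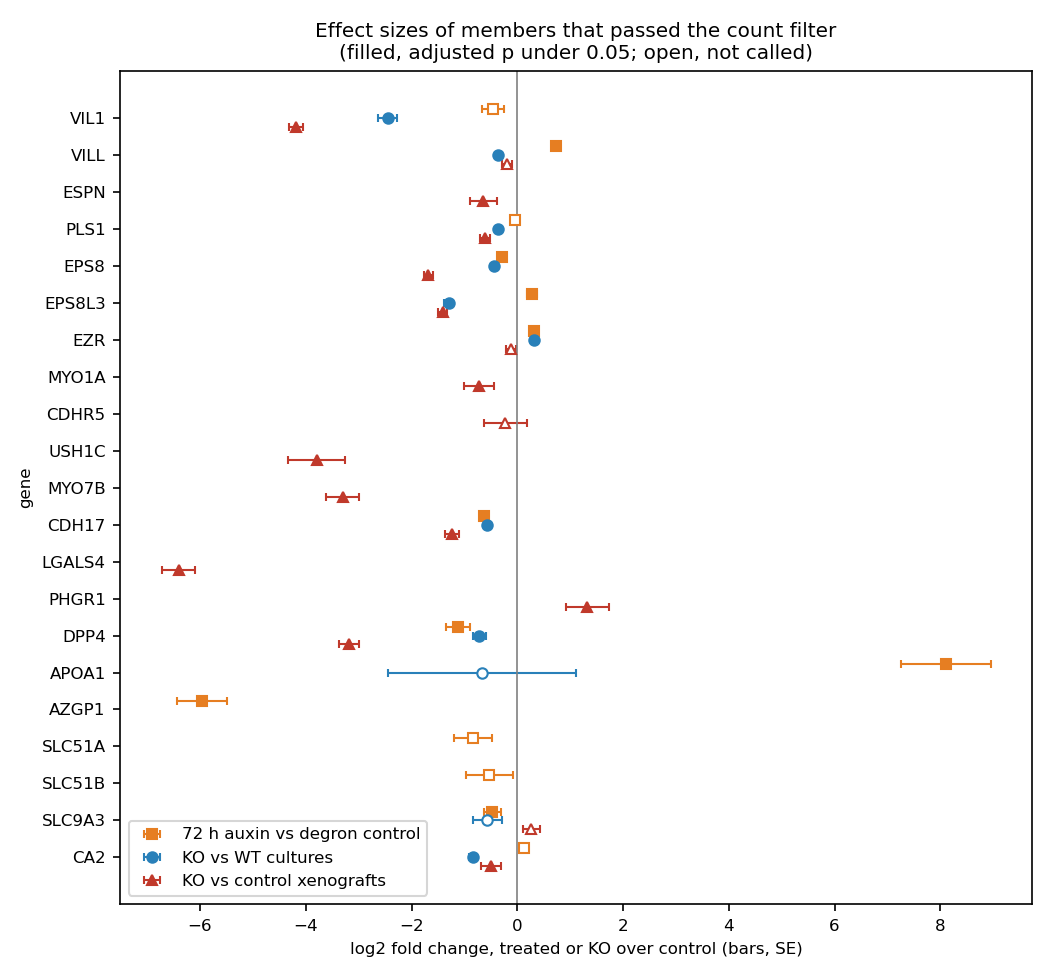
Log2 fold change, with its SE, of each member that passed the count filter, at 72 h of auxin against degron controls (squares), in KO against WT cultures (circles) and in KO against control xenografts (triangles). Filled symbols have an adjusted p under 0.05; VIL1 lies at -4.18 in xenografts, at -2.45 in cultures and, open, at -0.47 at 72 h, while EPS8L3 is below 0 in both knockout comparisons and above 0 at 72 h.

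Whether the knockout acts on a member to a different extent in tumours and in culture was tested as a difference of the log2 fold changes in a fit of all 16 knockout-system libraries. Of 16021 genes 27% differed, 12.6% upward and 14.4% downward. The share of these calls that were upward was 46.8%, and 32.5% with total-count scaling. Of the 20 members tested, 6 had a more negative change in xenografts than in cultures, and 0 had a more positive one. At an unadjusted p under 0.05, 1 was more positive, and DESeq2 and limma also called 0 more positive. Of the 6, USH1C had libraries at the count cutoff only among control xenografts, where it was high. The counts therefore support nothing about the members as a list. The system, the host and the library set coincide here and cannot be told apart.

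DPP4 differed by a log2 of -2.45 ± 0.24 (adjusted p = 1.91e-07), as it fell 9.08-fold in xenografts and 1.65-fold in cultures. VIL1 differed by -1.71 ± 0.26 (adjusted p = 4.91e-05) and EPS8 by -1.23 ± 0.12 (adjusted p = 1.21e-07). CDH17 (-0.65, adjusted p = 0.0235) and EZR (-0.42, adjusted p = 0.0220) were called as well, but CDH17 lost the call in 3 and EZR in 2 of the cases that left out 1 library, with adjusted p of 0.0508 to 0.0618. USH1C differed by -4.04 ± 1.22 on the log2 scale. It rests on 9 counts in KO cultures, 7 of them in replicate 3, and 6 in WT cultures, and without KO culture replicate 3 the value was -2.51 with an adjusted p of 0.338. EPS8L3 gave no call (-0.09 ± 0.14, adjusted p = 0.669).

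In the degron cells 14 of 36 members passed the filter. At 12 h of auxin 1 member was called lower and 0 higher, where 7.39% of 14029 genes were called, 4.04% higher and 3.35% lower. At an unadjusted p under 0.05, 3 members were higher and 1 lower, and DESeq2 and limma called 0 in either direction. The 1 call was EPS8L3, at 11.7, 12.1 and 13.8 TPM at 12 h and 12.6, 16.6 and 16.8 TPM in controls (log2 -0.33 ± 0.10, adjusted p = 0.0404). The groups overlapped, and the call was lost without either of control replicates 2 and 3 or of 12 h replicates 1 and 2, with adjusted p of 0.100 to 0.224. Without the haemoglobin-bearing libraries, which leaves 12 h replicate 1 alone in its group, the value was -0.45. CDH17 had 29.3, 28.6 and 28.9 TPM at 12 h and 27.6, 28.2 and 26.6 TPM in controls (log2 0.05, adjusted p = 0.659).

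At 72 h 4 members were higher and 5 lower than in controls, where 57.8% of genes were called, 28.3% higher and 29.5% lower. Of these 9, APOA1 passed the filter only through the 72 h cells, where it was high, and AZGP1 only through the other 3 degron groups, so the counts support nothing about the members as a list. The share of all calls that were higher was 48.9%, and 65% with libraries scaled by total counts, a setting that moved the median of all genes by 0.12 on the log2 scale and called 5 members higher and 4 lower. After washout 2 members were higher and 3 lower than in controls, where 5% of genes were called, 2.64% higher and 2.36% lower. All these comparisons share the control libraries.

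CDH17 had the most separate levels. It stood at 27.6, 28.2 and 26.6 TPM in controls, at 29.3, 28.6 and 28.9 TPM at 12 h, at 15.5, 15.9 and 15.5 TPM after washout and at 19.3, 19.1 and 19.6 TPM at 72 h. It was therefore lower in all 6 later libraries than in all 6 earlier ones. It fell 1.55-fold at 72 h (log2 -0.64 ± 0.06, adjusted p = 6.64e-10) and 1.77-fold after washout (log2 -0.82 ± 0.06, adjusted p = 9.24e-10) against controls. Against the 12 h cells, from which the washout cells follow, CDH17 fell 1.83-fold after washout (log2 -0.87 ± 0.06, adjusted p = 9.35e-11). Without the 4 haemoglobin-bearing libraries only 12 h replicate 1 and washout replicate 2 remain of these groups. The fitted change between them was -0.89.

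DPP4 and EPS8 had the same order of levels at smaller counts or smaller size. DPP4 had 1.73, 1.72 and 1.10 TPM in controls, 1.53, 1.43 and 1.90 TPM at 12 h, 0.630, 0.960 and 0.670 TPM after washout and 0.900, 0.490 and 0.95 TPM at 72 h. It was lower by 2.17-fold at 72 h (adjusted p = 0.000152) and by 2.42-fold after washout (adjusted p = 0.00188) against controls. EPS8 had 36.3, 33.6 and 33.7 TPM in controls, 35.7, 36.2 and 38.7 TPM at 12 h, 26.5, 25.9 and 27.8 TPM after washout and 30.9, 26.5 and 30.8 TPM at 72 h. It was lower by 1.22-fold at 72 h (adjusted p = 8.96e-05) and by 1.24-fold after washout (adjusted p = 0.00166). Without the haemoglobin-bearing libraries, which leaves washout replicate 2 alone in its group, the washout values against controls were -1.16 for DPP4 and -0.29 for EPS8. That fit cannot tell whether the calls hold.

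The other washout calls were small. CA2 had 33.8, 33.1 and 34.8 TPM in controls and 44.9, 41.8 and 45.6 TPM after washout, a rise of 1.28-fold (adjusted p = 0.00145). EZR had 355 ± 7.74 TPM after washout and 304 ± 21.4 TPM in controls (1.16-fold higher, adjusted p = 0.0126). Without the haemoglobin-bearing libraries, which leaves washout replicate 2 alone in its group, the log2 values were 0.30 for CA2 and 0.19 for EZR. That fit cannot tell whether the calls hold. The EZR call was also lost without control replicate 3 or without washout replicate 3. SLC51B, the bile acid exporter subunit, had 1.90, 1.48 and 2.35 TPM at 12 h and 0.730, 0.810 and 0.5 TPM after washout, on 62 and 20 counts. Against 12 h, SLC51B fell 2.71-fold after washout (adjusted p = 0.0212), a call lost in 4 cases that left out 1 library. SLC51B was at the count cutoff in all 3 libraries at 12 h, where it was high, in 2 controls, in 1 library at 72 h and in 0 after washout. In that comparison, washout against 12 h, 2 members were higher and 5 lower, where 17.4% of genes were called, 9.27% higher and 8.15% lower. Without the haemoglobin-bearing libraries it has 1 library on each side, so its calls are not given. The value for SLC51B was then a log2 of -1.20.

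Actin-bundle genes rose at 72 h in part. VILL had 22.8, 25.3 and 28.97 TPM in controls, 26.1, 25.6 and 29.8 TPM at 12 h, 28.6, 28.1 and 30.2 TPM after washout and 41.1, 39.1 and 40.0 TPM at 72 h. The 72 h libraries were above all others, and VILL rose 1.66-fold against controls (log2 0.73 ± 0.07, adjusted p = 2.19e-09). EZR had 408 ± 4.43 TPM at 72 h and 304 ± 21.4 TPM in controls (1.24-fold higher, adjusted p = 1.08e-05), and EPS8L3 21.2 ± 1.15 TPM at 72 h and 15.3 ± 2.35 TPM in controls (1.21-fold higher, adjusted p = 0.0147). The EPS8L3 call was lost without control replicate 1 or without 72 h replicate 1, with adjusted p of 0.0548 and 0.155. VIL1 was low in all degron libraries, from 0.650 to 1.14 TPM, and was not called at 72 h against controls (log2 -0.47 ± 0.21, adjusted p = 0.0603). Leaving the haemoglobin-bearing libraries out of the fit removed no library from either of these groups. The VIL1 value was then nearly the same (log2 -0.48 ± 0.18), and the smaller SE brought a call. Against 12 h cells VIL1 was called lower (log2 -0.55 ± 0.21, adjusted p = 0.0268), with overlapping TPM and a call lost in 4 of the 6 cases that left out 1 library (adjusted p of 0.0745 to 0.137). SLC9A3 had 0.910, 1.05 and 1.36 TPM at 72 h and 1.55, 1.39 and 1.35 TPM in controls (log2 -0.47 ± 0.15, adjusted p = 0.0107); with control replicate 1 or 72 h replicate 1 left out, the adjusted p was 0.0578 to 0.0778.

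Genes of lipid handling gave the widest gaps at 72 h, at low levels. AZGP1, a secreted glycoprotein, had 3.04, 3.68 and 5.09 TPM in controls, 5.05, 4.83 and 4.60 TPM at 12 h, 3.82, 4.65 and 4.30 TPM after washout and 0.170, 0 and 0 TPM at 72 h. It had 3 counts at 72 h and 163 in controls, a ratio of count rates of 65.4 (95% interval 22.0 to 320), with all 3 counts in 72 h replicate 1. The fitted change of AZGP1 was a log2 of -5.96, and -8.86 without that library, and it is no bound. APOA1, the main apolipoprotein of high-density lipoprotein, had 125 counts at 72 h and 0 in controls, at least 34.6-fold higher against the floor, and APOB had 45 and 0, at least 12.5-fold higher. FABP1 had 7 counts at 72 h and 0 in controls. The same 72 h libraries held 61, 59 and 104 counts of the 6 liver transcripts named above, AFP and ALB among them, against 0 to 3 in each of the other degron libraries; the part of these in the results was not tested.

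The carbonic anhydrase CA1, an enzyme of red cells as well as colonocytes, had counts in 3 degron libraries only. It had 20 and 3 counts in 12 h replicates 2 and 3 and 11 in washout replicate 3, all of them haemoglobin-bearing, and 0 in the other 25 libraries. In the 72 h cells against the 12 h cells, 4 members were higher and 8 lower, where 55.4% of genes were called, 26.8% higher and 28.6% lower. The 4 that rose were VILL, EPS8L3, EZR and APOA1. APOA1 passed the filter only through the 72 h cells, and of the 8 lower members AZGP1 passed only through groups other than 72 h. SLC51B, also among the 8, was at the count cutoff in 3 of 3 libraries at 12 h and in 1 of 3 at 72 h. Without the haemoglobin-bearing libraries, which leaves 12 h replicate 1 alone in its group, the log2 values were 0.14 for EZR, -1.49 for SLC51B and -0.37 for SLC9A3. That fit cannot tell whether the calls hold. The SLC9A3 call was also lost in 2 of the cases that left out 1 library.

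**Figure D4:**
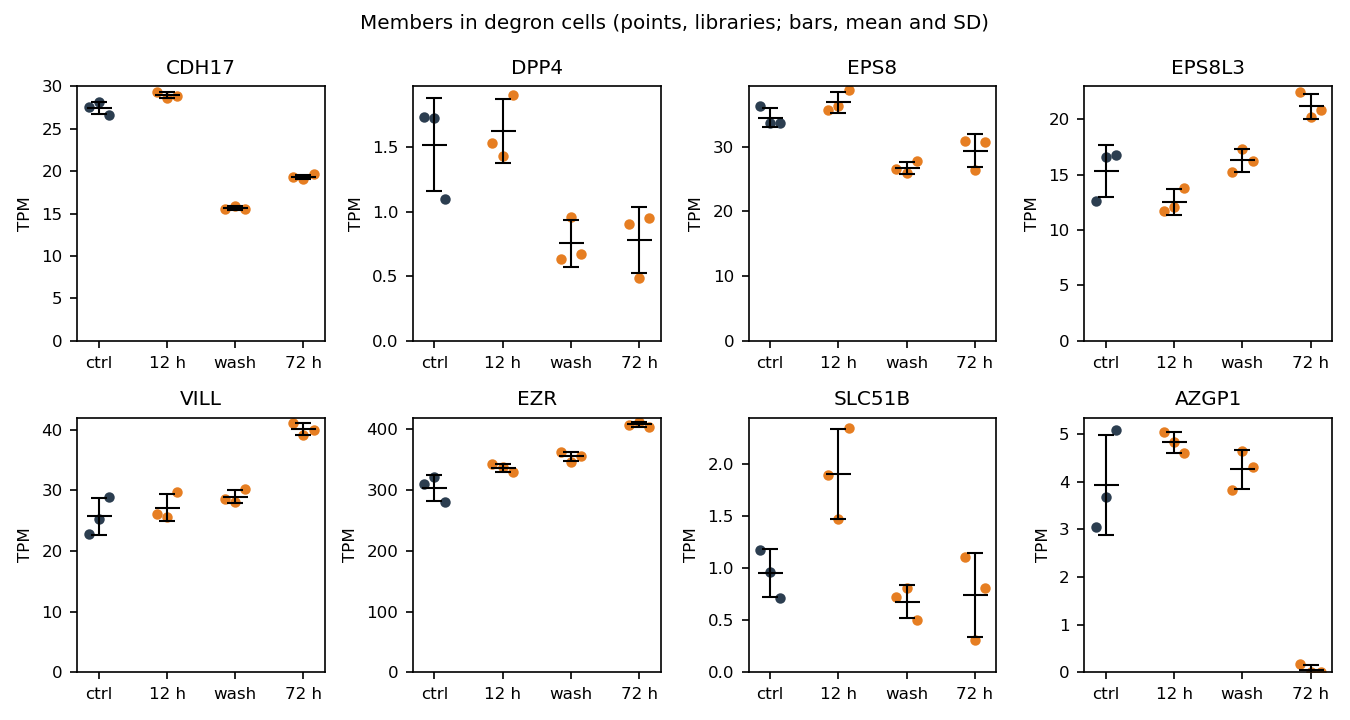
TPM of 8 members in degron cells: controls (ctrl), 12 h of auxin, 12 h of auxin followed by 24 h of washout (wash) and 72 h of auxin; points are the 3 libraries of a group and bars the mean and SD. CDH17, DPP4 and EPS8 are lower after washout and at 72 h, VILL and EZR are highest at 72 h, and AZGP1 is near 0 at 72 h.

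The change at 72 h of auxin and the change in KO cultures were compared in a fit of all 18 degron and culture libraries, as the 72 h change minus the knockout change. Of 14714 genes 44.1% differed, 23% upward and 21.1% downward, and of 15 members tested 5 were higher and 2 lower. VIL1 differed by a log2 of 2.0 ± 0.29 (adjusted p = 3.30e-06), and was 5.47-fold lower in KO cultures. At 72 h against controls VIL1 was not called with all degron libraries in the fit. Without the haemoglobin-bearing ones, none of them in those groups, its value was nearly the same but was called. EPS8L3 differed by 1.59 ± 0.13 (adjusted p = 6.00e-10), as it fell in KO cultures and rose at 72 h, and VILL by 1.10 ± 0.10 (adjusted p = 4.41e-10) in the same way. CA2 differed by 1.00 ± 0.09 and PLS1 by 0.33 ± 0.07.

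The 2 members with a lower value at 72 h were AZGP1 (-6.89 ± 1.08, and -9.82 without 72 h replicate 1) and SLC51A (-1.65 ± 0.65, adjusted p = 0.0402), a subunit of the same transporter as SLC51B. The SLC51A call was lost in 6 cases that left out 1 library. AZGP1 passed the filter only through degron groups other than 72 h, where it was high. In cultures SLC51A reached the count cutoff in 1 KO library only. The culture changes rest on 10 counts in KO and 4 in WT cultures for AZGP1, and on 29 and 13 for SLC51A. CDH17 gave no call (-0.05 ± 0.09, adjusted p = 0.648), and neither did EZR (0.01 ± 0.08, adjusted p = 0.941), DPP4 (-0.38 ± 0.25, adjusted p = 0.234) or EPS8 (0.17 ± 0.08, adjusted p = 0.0903). Duration, the way GATA6 was removed, the clones and the library set differ together between these systems and cannot be told apart.

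Further genes of the same cell biology were read from lists of related genes. Of 36 other brush border and microvillus genes, 25 were tested in the xenografts, where 9 were higher and 8 lower in KO tumours (median log2 fold change 0.14). DPEP1, a membrane dipeptidase, had 0.514 ± 0.269 TPM in KO xenografts and 9.59 ± 3.10 TPM in control xenografts and fell 17.1-fold. BAIAP2L2, a membrane-bending protein, fell 6.94-fold and SLC5A1, the sodium-glucose cotransporter of the brush border, fell 4.48-fold, while STX3, a fusion protein of the apical membrane, fell 2.16-fold. In KO cultures 12 of 23 were higher and 2 lower, led by CEACAM1, an adhesion molecule, at 4.20 ± 0.336 TPM against 0.233 ± 0.101 TPM in WT cultures (15.6-fold higher). At 72 h 11 of 20 were higher and 4 lower. Beside all these list counts stand the shares over all genes tested, 28% higher and 28.1% lower in KO xenografts, 30.4% and 28.7% in KO cultures, and 28.3% and 29.5% at 72 h, and nothing particular to a list is read from them.

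Of 20 transcription factors of enterocytes 15 were tested in xenografts, with 5 higher and 8 lower in KO tumours. CDX1, a homeobox factor of the intestine, had 0.00600 ± 0.0134 TPM in KO xenografts and 1.67 ± 0.414 TPM in control xenografts. HNF4G, a nuclear receptor of enterocytes, had 0.480 ± 0.127 TPM in KO xenografts and 2.34 ± 0.264 TPM in control xenografts (4.56-fold lower, adjusted p = 6.78e-08), and ISX, an intestine-specific homeobox factor, fell 3.04-fold. MAF rose 4.15-fold. In KO cultures 4 of 14 rose and 7 fell, and CDX2 was 1.87-fold lower there; at 72 h 8 of 14 rose and 2 fell. Over all genes 56.1% were called in KO xenografts, 59.1% in KO cultures and 57.8% at 72 h.

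Of 20 other colonocyte transport genes 12 were tested in xenografts, and 4 rose and 6 fell in KO tumours, where 56.1% of all genes were called. GUCY2C, the receptor of guanylin, had 0.0720 ± 0.0654 TPM in KO xenografts and 2.79 ± 0.761 TPM in control xenografts and fell 31.8-fold (adjusted p = 9.05e-08), beside the 2 and 33 counts of its ligand GUCA2A given above. CA12, a membrane carbonic anhydrase, fell 4.75-fold and the monocarboxylate carrier SLC16A1 2.35-fold. In KO cultures 4 of 10 rose and 5 fell, where 59.1% of all genes were called, and at 72 h 3 of 7 rose and 2 fell, where 57.8% were. Of 18 other lipid absorption genes 7 were tested in xenografts, of which 4 rose and 2 fell. MOGAT2, an enzyme of triglyceride synthesis in enterocytes, was the widest, at 0.896 ± 0.442 TPM in KO xenografts and 0.0140 ± 0.0134 TPM in control xenografts. It had 11 to 76 counts in each KO xenograft and 0 or 1 in each control xenograft. MOGAT2 thus passed the filter only through the KO xenografts, where it was high, so its gap supports nothing about the list. In KO cultures 3 of 6 of the lipid genes rose and 2 fell, and at 72 h 2 of 7 rose and 5 fell.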

How the data were processed

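RNA was sequenced from 28 libraries in 8 groups of 3 systems. Per the submitters' processing notes, the tools were Trim Galore 0.6.10, STAR and RSEM with hg38; the annotation, the strand setting and the handling of mouse reads are not given in the sources used here. The authors deposited, per library, a file of expected counts per gene and a file of TPM per gene. Genes were joined by Ensembl identifier without version. The organism of the xenografts is labelled mouse, but their files list human genes, so all values are of human genes.

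Expected counts were rounded to whole numbers, filtered with filterByExpr, scaled by TMM and tested with edgeR 4.0.16 (robust quasi-likelihood F test, R 4.3.3) in 1 fit per system, or 1 fit over both systems where 2 effects were compared, with Benjamini-Hochberg adjustment over all genes tested and a threshold of 0.05. Standard errors were derived from the log2 fold change and its F statistic. Levels in TPM are the deposited values; a pseudocount of 1 was used on the log2 scale in limma 3.58.1. Ratios of low counts carry exact conditional 95% intervals, with a floor of 3 counts over a group at 0. Promoter windows came from RefSeq (GRCh38.p14). On simulated counts the test recovered 84% of 200 genes changed 2-fold at 12 h (14029 genes), 85% at 72 h, 77% in KO cultures (13740 genes), 82% in KO xenografts (14996 genes), 73.5% in the 72 h minus knockout difference (14714 genes) and 61.5% in the xenograft minus culture difference (16021 genes).

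The members and lists were chosen with earlier results of these data known. All members, GATA6, and up to 4 genes with the smallest p per related list and comparison are named; EPCAM, CDH1, and the 6 liver transcripts were added after the data were seen. Alternatives were DESeq2 1.42.0, total-count scaling, no filter, limma on TPM, a replicate block, only the 2 groups compared in the fit, each library left out, and, chosen after seeing the data, the haemoglobin-bearing libraries left out.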

Additional observations from a re-analysis of the deposited data

Results flagged for a closer look

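In the xenograft groups, 27 sets of 5 libraries were screened for a library far from the others, and chance flags about 1 in 20. The highest KO xenograft for PHGR1 stood at 190 TPM (189.63), against 60.8 to 94.5 TPM in the other KO xenografts, and the highest control xenograft for PHGR1 stood at 76.21 TPM, against 22.2 to 37.7 TPM in the others. FABP1 was highest at 6.91 TPM in control xenograft replicate 3, against 0.960 to 2.18 TPM in the other control xenografts. CA2 was lowest at 4.25 TPM in control xenograft replicate 5, against 6.93 to 7.67 TPM in the others.

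The change at 72 h of auxin differed from the change in KO cultures, by edgeR's test of the difference in log2 fold change, for 7 members: VIL1 by 2.0, EPS8L3 by 1.59, VILL by 1.105, CA2 by 0.995, PLS1 by 0.328, SLC51A by -1.65 and AZGP1 by -6.89. The change in KO xenografts differed from that in KO cultures for 6 members: USH1C by -4.045, DPP4 by -2.45, VIL1 by -1.71, EPS8 by -1.23, CDH17 by -0.65 and EZR by -0.42. Among these, VIL1 alone was called in both differences.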

How the results depend on the processing

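Among called log2 values of the members and GATA6, 0 of 75 reversed under the replicate block, total-count scaling, no filter, DESeq2 or limma on TPM, and 4, 6, 6, 5 and 9 lost their call. The only reversals were of values that were not called: the difference between the 72 h and culture knockout changes was -0.0356 for EPS8 with limma on TPM, and between -0.154 and 0.0099 for CDH17 when 1 library was left out. Replicate numbers did not pair the samples (same-number correlations -0.195 to -0.0697 in cultures, -0.0626 to 0.0681 in degron cells, -0.0939 to 0.0400 in xenografts); with the replicate block, 1 member was lower in the 72 h minus knockout difference, as without a filter or with DESeq2 (1 each), and the other counts of called members and genes stayed within 1.5 times.

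At 12 h, 0 members were lower with total-count scaling, DESeq2, limma, only 2 groups in the fit or the haemoglobin-bearing libraries left out, 1 was higher without a filter, and 357 genes were called by limma and 333 without those libraries. For washout against 12 h, limma called 1 member higher and 1123 genes; without the haemoglobin-bearing libraries 0 members were higher, 1 lower and 334 genes were called. For washout against controls, 281 genes were called by limma and 458 with 2 groups in the fit; without those libraries 0 members were higher, 1 lower and 179 genes were called. Limma called 5 members lower at 72 h against 12 h and 10 lower in the xenograft minus culture difference, and 0 members were higher in KO xenografts without a filter, where PHGR1 lost its call. With a mean of 5 TPM as the bound, 10 members counted as expressed. Without the haemoglobin-bearing libraries, 12 h replicate 1 and washout replicate 2 are alone in their groups, so counts of calls from that fit are not given. The cause of the shifts above was not tested.

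The share of calls that were higher moved by over 10 percentage points in several cases. At 12 h it went from 54.7 to 66.9% with total-count scaling and 70.9% by limma on TPM. At 72 h against controls it went from 48.9 to 65.0% and 65.2% in these 2 settings. The values at 72 h against 12 h were 48.4, 62.8 and 60.9%, and in KO cultures 51.4, 62.2 and 74.4%. In the xenograft minus culture difference they were 46.8, 32.5 and 17.5%. Limma alone moved the 72 h minus knockout difference (52.1 to 39.3%). Shares without the haemoglobin-bearing libraries are not given, as only 12 h replicate 1 and washout replicate 2 then remain of their groups.

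With 1 library left out, 606 to 1170 genes and 0 to 1 members lower were called at 12 h, with 606 without 12 h replicate 1 and 623 without control replicate 2. Washout against 12 h gave 1414 to 2266 genes, 0 to 2 members higher and 3 to 4 lower, with 1414 genes without washout replicate 3 and 1566 without 12 h replicate 1. Washout against controls gave 321 to 896 genes and 1 to 2 members higher, with 321 genes without control replicate 3 and 353 without washout replicate 3. KO xenografts gave 1 to 2 members higher, the 72 h minus knockout difference 1 to 2 lower, and the xenograft minus culture difference 0 to 1 higher.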
